A study of Mus musculus with 4 samples.

Results

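Transcripts of 10 genes of triglyceride synthesis and storage were followed: the lipins Lpin1, Lpin2 and Lpin3, the acyltransferases Gpam, Agpat3, Mogat2, Dgat1 and Dgat2, and the lipid droplet coat proteins Plin2 and Plin3. The members were every non-control probe whose RefSeq accession maps to one of these genes, 16 of 41174 probes on the array, and they cover 10 of the 17016 genes that could be named. All 16 passed the detection filter, which kept 28088 probes. The study silenced Pnpla6, which encodes neuropathy target esterase, an enzyme that breaks down phosphatidylcholine, in the mouse embryonic stem cell line D3. The cells then differentiated as embryoid bodies in medium free of LIF, which otherwise maintains the undifferentiated state. The 4 groups of RNA were cells transfected with siRNA against Pnpla6 and control cells after 96 h, and the same kinds of cells after 24 h. Each of the 4 Agilent 2-colour arrays carried RNA of silenced cells beside RNA of control cells, with 2 arrays per time and the dyes exchanged between them. D3 is a single established line. The treatment of the control cells is not stated in the labels, and neither is a separate culture for each array. The p-values below therefore rest only on spread among these arrays, which may be technical. In the silencing tests this spread is mostly shared over all probes and is taken after a term for dye orientation. It is then not the spread between the 2 arrays of a given probe.

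Triglyceride is built by adding fatty acids to glycerol 3-phosphate. Gpam adds the first and enzymes such as Agpat3 the next, which gives phosphatidic acid. Lipins remove the phosphate to give diacylglycerol, and Dgat1 and Dgat2 add the last fatty acid. Mogat2 makes diacylglycerol by another route, from monoacylglycerol, and is best known from fat absorption in the intestine. The finished triglyceride is stored in droplets coated by perilipins. Phosphatidic acid and diacylglycerol are also the precursors of membrane phospholipids, including phosphatidylcholine, the substrate of the esterase that Pnpla6 encodes.

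The targeted gene was read first. In the log2 ratios of silenced to control cells the Pnpla6 probes A_51_P301891 and A_52_P674803 each gave 0.01 at 96 h, with a limma adjusted p of 0.962 for the first. At 24 h they gave −0.87 and −0.57 (limma adjusted p = 3.49e-13 and 1.5e-07). These 24 h calls depended on the dye term: without it, with no replicate block, both ratios kept their size and the limma adjusted p was 1 for each. They were also lost with the authors' ratios (limma adjusted p = 0.674 for each) and without any 1 array, in fits that had no dye term either. With an offset of 16 the call of A_52_P674803 was lost (limma adjusted p = 0.205). All 10 embryonic stem cell markers on the list, such as Pou5f1 and Nanog, were above background in every group. Of the adipocyte markers 3 of 6 passed the filter, none of them above background on both arrays of a group at 24 h, and Adipoq, Fabp4 and Cfd did not pass. The same 3 (Plin1, Retn and Cidec) were above background on both arrays of silenced and of control cells at 96 h. Between 62.5% and 68.7% of the spots per channel were well above background and no spot was saturated. Replicate 2 of 96 h was on slide 2 and the other 3 arrays were on slide 1.

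The comparisons that follow share channels or arrays and are not independent of each other. Silenced and control cells were read on the same spots, whose 2 channels had a correlation of 0.894. Agreement between them over time is therefore partly built in. The first comparison asked how these transcripts stood after 96 h against 24 h of differentiation. Lpin1, Agpat3, Plin2, Plin3 and Mogat2 were higher at 96 h in silenced and in control cells, while Gpam and Dgat2 were lower. In silenced cells 10 of the 16 member probes passed the test at an adjusted p of 0.05, 7 higher and 3 lower, where 37.5% of all tested probes did, 18% higher and 19.5% lower. In control cells 9 of 16 passed, 7 higher and 2 lower, against a background of 36.6%, with 17.8% higher and 18.8% lower. The called probes belonged to 7 of the 10 genes in each case. These genes were chosen with earlier results of these data known, so an excess over the shares of all probes is not independent support. The median log2 difference of the member probes was 0.32 in silenced and 0.33 in control cells, and over all tested probes it was −0.03 in each. RNA of whole cultures was measured, so that fewer cells of a type and less RNA per cell cannot be told apart.

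Lpin1 encodes lipin 1, a phosphatidate phosphatase that also acts in the nucleus as a transcriptional coactivator. Its brightest probe, A_52_P483105, had normalized log2 intensities of 10.54 and 10.34 in silenced cells at 96 h, against 9.09 and 8.87 at 24 h. In control cells the same probe had 10.31 and 10.35 at 96 h, against 9.001 and 8.97 at 24 h. At both times the silenced and control channels lay close together, and every 96 h channel was above every 24 h channel. The difference corresponded to 2.76-fold in silenced cells (log2 1.46, SE 0.10, limma adjusted p = 4.17e-05) and 2.54-fold in control cells (log2 1.34, SE 0.10, limma adjusted p = 5.31e-05). The other Lpin1 probes gave the same direction. A_52_P483104 was 2.62-fold higher in silenced and 2.36-fold higher in control cells, and A_52_P483101 was 2.25-fold and 2.18-fold higher.

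Neither of the other lipins passed the test over time with all 4 arrays. Lpin3, on probe A_51_P345975, stood at 9.31 and 9.25 in silenced cells at 96 h, against 9.33 and 8.93 at 24 h, and at 9.36 and 9.30 in control cells at 96 h, against 9.19 and 8.99 at 24 h. The silenced channels of the 2 times overlapped. The Lpin3 value rested on single arrays: without 24 h replicate 1 it was 0.35 in silenced and 0.34 in control cells, and without 24 h replicate 2 it was −0.05 in silenced cells. Lpin2 was dim, with intensities between 6.41 and 6.76 in all 8 channels. Its log2 difference over time was −0.21 in silenced cells (limma adjusted p = 0.0946) and 0.09 in control cells (limma adjusted p = 0.452). The silenced value passed with an offset of 16, at −0.32 (limma adjusted p = 0.0474).

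Among the acyltransferases, Mogat2 gave a clear signal at 96 h and was at background at 24 h. Probe A_51_P411345 had log2 intensities of 8.54 and 8.62 in silenced cells and 9.20 and 8.98 in control cells at 96 h. At 24 h it had 6.21 and 6.12 in silenced cells and 6.09 in both control channels. It was well above background on both arrays of each 96 h group, on 1 of the 2 silenced channels at 24 h and on neither control channel at 24 h. In control cells the fitted difference was 8.02-fold (limma adjusted p = 2.27e-05), the 24 h side being taken from signals at background. This is no lower limit: the log2 difference was 3.003 with all arrays and 2.88 without 96 h replicate 1. The probe passed the detection filter only through its 96 h groups, so its p-values over time are not independent of that filter. In silenced cells the fitted difference was 5.34-fold (log2 2.42, SE 0.17, limma adjusted p = 5.7e-05). With an offset of 16 in place of 50 the log2 differences were 3.22 in silenced and 3.92 in control cells, so the size of the rise depends on how signals at background are treated.

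Agpat3, which encodes an enzyme that acylates lysophosphatidic acid, was brighter and rose less. Its probe A_51_P425490 had 12.97 and 12.78 in silenced cells at 96 h, against 12.38 and 12.17 at 24 h, and 12.86 and 12.93 in control cells at 96 h, against 12.21 and 12.22 at 24 h. The times did not overlap. This was 1.52-fold in silenced cells (limma adjusted p = 0.00177) and 1.60-fold in control cells (limma adjusted p = 0.000996). The dimmer probe A_52_P523569 gave log2 0.48 and 0.43 and missed the threshold in silenced and in control cells (limma adjusted p = 0.0691 and 0.1), but passed in both without the dye term. In control cells it was 0.59 without 24 h replicate 1 and 0.26 without 24 h replicate 2. Such fits keep 1 array at 24 h and do not show the spread between arrays there.

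Gpam, the mitochondrial glycerol 3-phosphate acyltransferase, fell. Its intensities were 6.39 in both silenced channels at 96 h, against 6.76 and 6.68 at 24 h, and 6.35 and 6.36 in control cells at 96 h, against 6.74 and 6.76 at 24 h. The log2 difference was −0.33 in silenced cells (SE 0.09, limma adjusted p = 0.0239) and −0.40 in control cells (SE 0.09, limma adjusted p = 0.0112). These are low intensities, and the offset of 50 added to every spot understates fold changes most for dim probes. With an offset of 16 the differences were −0.52 and −0.63.

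Of the enzymes of the last step, Dgat2 fell on some of its probes and Dgat1 did not pass the test. Dgat2 probe A_51_P396003 was at 6.49 and 6.50 in silenced cells at 96 h, against 6.93 and 6.88 at 24 h (log2 −0.41, limma adjusted p = 0.0272). In control cells it was at 6.61 and 6.51 at 96 h, against 6.89 and 6.93 at 24 h (log2 −0.35, limma adjusted p = 0.0484). The brightest Dgat2 probe, A_52_P592909, gave −0.35 in silenced cells (limma adjusted p = 0.0446) and −0.31 in control cells (limma adjusted p = 0.0664), and the third, A_52_P359739, gave −0.23 and −0.25, not called in either. The silenced call of A_52_P592909 was lost with an offset of 16 (limma adjusted p = 0.063) and without 24 h replicate 1 (limma adjusted p = 0.0527). Both Dgat1 probes had negative differences, from −0.15 to −0.35, with adjusted p-values of 0.125 or more. Some of them passed when the dye term was left out. Without 24 h replicate 2, A_52_P456134 was at −0.28 in control cells.

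The droplet coat transcripts rose together. Plin2, whose protein coats droplets in most cell types, had 13.31 and 13.20 in silenced cells at 96 h, against 12.69 and 12.72 at 24 h. In control cells it had 13.19 and 13.09 at 96 h, against 12.49 and 12.61 at 24 h. Plin3, whose protein moves from the cytosol to newly formed droplets, had 13.62 and 13.60 in silenced cells at 96 h, against 13.05 and 13.10 at 24 h, and 13.59 and 13.55 in control cells at 96 h, against 13.02 and 12.99 at 24 h. No 96 h channel of either gene overlapped a 24 h channel. Plin2 was 1.46-fold higher in silenced cells (limma adjusted p = 0.00317) and 1.502-fold higher in control cells (limma adjusted p = 0.00236). Plin3 was 1.46-fold higher in silenced cells (limma adjusted p = 0.00252) and 1.48-fold higher in control cells (limma adjusted p = 0.00205).

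**Figure D1:**
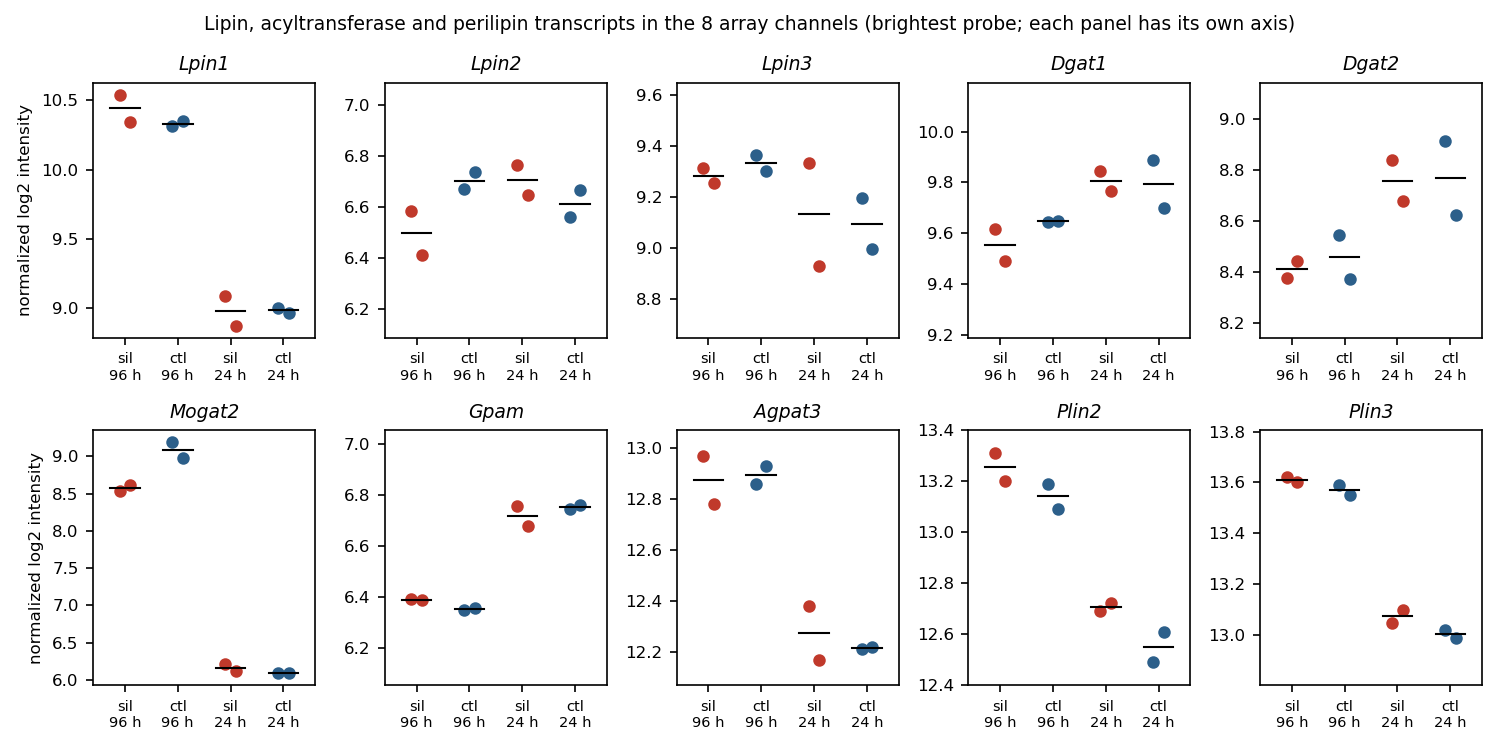
Normalized log2 intensity of the brightest probe of each gene in all 8 channels. Each dot is a channel of silenced (sil) or control (ctl) cells, with replicate 1 on the left and replicate 2 on the right, and the line is the mean; each panel has its own axis, so levels cannot be compared between genes. Lpin1, Mogat2, Agpat3, Plin2 and Plin3 are higher at 96 h, Gpam is lower, and Mogat2 at 96 h is the panel where the silenced channels, 8.54 and 8.62, lie clearly below the control channels, 9.20 and 8.98.

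**Figure D2:**
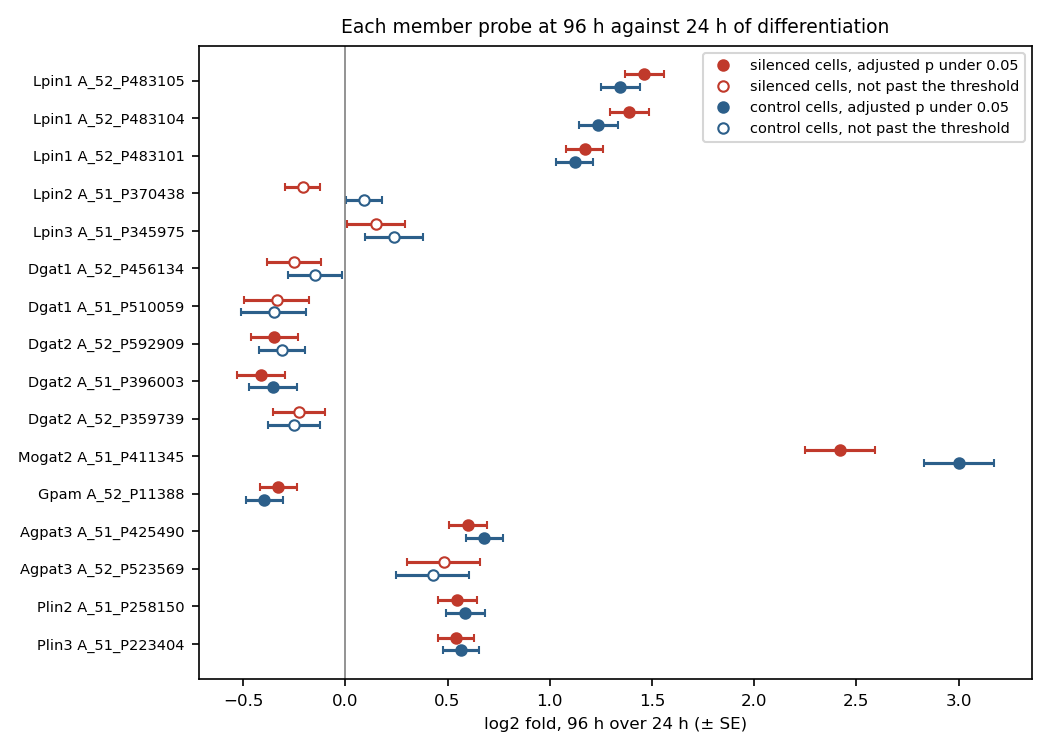
Log2 difference at 96 h over 24 h with its SE for each member probe in silenced and in control cells. Filled points passed a limma adjusted p of 0.05. Mogat2 is plotted at 2.42 in silenced and 3.003 in control cells, values set by the offset because its 24 h signals were at background on 1 of 2 silenced and both control channels. The 3 Lpin1 probes lie at 1.12 to 1.46.

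Since slide 2 held only a 96 h array, the time comparison was also made without it, within slide 1. There Lpin1 A_52_P483105 differed by 1.52 in silenced and 1.37 in control cells on the log2 scale, Mogat2 by 2.36 and 3.13, Agpat3 A_51_P425490 by 0.64 and 0.70, Plin2 by 0.59 and 0.66, Plin3 by 0.57 in each, and Gpam by −0.35 and −0.38. That fit keeps 1 array at 96 h and does not show the spread between arrays there. Markers of other cells moved over the same interval. The summed intensity of the visceral endoderm list was 1206 to 1223 in silenced cells at 96 h, against 736 to 743 at 24 h, and 988 to 994 in control cells at 96 h, against 734 to 758 at 24 h. Of its 11 markers 8 passed the filter, and 4 were higher at 96 h in each case. The feeder fibroblast list stood at 2922 to 2976 in silenced cells at 96 h, against 1871 to 1943 at 24 h, and at 3063 to 3369 in control cells at 96 h, against 1871 to 1962 at 24 h, with 7 of 10 markers past the filter. The part of these cells in the member differences was not tested.

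The promoters of the 4 bright genes that rose together are shown to let the sequences be compared. That of Lpin2 is shown too, although its silencing call at 96 h was lost without the dye term. Promoter sequences, from RefSeq on GRCm38.p6, were matched for 7 of the 10 genes; those of Dgat1, Dgat2 and Mogat2 were not used here. The 250 bases before the start are printed 5′ to 3′ on the strand of the gene. Capitals mark 3 motifs on either strand: the E-box, whose letters are CACGTG, the CCAAT box, named by its letters, and the GC box, whose letters are GGGCGG.
Lpin1 (chr12:16610967-16611216, minus strand): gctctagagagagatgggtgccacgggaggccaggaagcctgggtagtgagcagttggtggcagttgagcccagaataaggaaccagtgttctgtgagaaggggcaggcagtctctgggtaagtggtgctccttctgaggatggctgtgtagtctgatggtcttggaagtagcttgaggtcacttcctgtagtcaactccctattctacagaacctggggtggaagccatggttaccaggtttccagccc
Agpat3 (chr10:78351701-78351950, minus strand): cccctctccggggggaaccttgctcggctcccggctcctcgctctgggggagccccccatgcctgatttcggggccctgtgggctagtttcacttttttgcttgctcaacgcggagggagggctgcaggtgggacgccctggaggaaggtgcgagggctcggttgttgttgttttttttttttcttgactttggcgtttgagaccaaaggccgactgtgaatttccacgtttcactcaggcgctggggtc
Plin2 (chr4:86670060-86670309, minus strand): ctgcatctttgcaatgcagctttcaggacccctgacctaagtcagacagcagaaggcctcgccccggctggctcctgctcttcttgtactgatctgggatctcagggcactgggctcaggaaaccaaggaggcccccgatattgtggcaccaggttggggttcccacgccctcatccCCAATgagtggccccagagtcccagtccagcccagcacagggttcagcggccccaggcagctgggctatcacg
Plin3 (chr17:56290512-56290761, minus strand): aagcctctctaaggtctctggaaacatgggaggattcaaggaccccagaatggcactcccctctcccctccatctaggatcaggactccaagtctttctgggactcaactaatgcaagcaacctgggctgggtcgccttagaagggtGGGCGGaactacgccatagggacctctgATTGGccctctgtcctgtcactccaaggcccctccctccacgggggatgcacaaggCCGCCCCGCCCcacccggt
Lpin2 (chr17:71183282-71183531, plus strand): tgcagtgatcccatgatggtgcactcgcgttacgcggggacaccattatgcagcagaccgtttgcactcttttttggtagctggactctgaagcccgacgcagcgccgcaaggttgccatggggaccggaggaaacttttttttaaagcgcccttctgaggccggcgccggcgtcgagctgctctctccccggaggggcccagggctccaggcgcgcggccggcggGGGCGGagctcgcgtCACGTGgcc
For Lpin2 the first of 3 entries is shown. Across 32851 promoter windows of the same length 6.02% hold the E-box, 33.8% the CCAAT box and 32.7% the GC box. Among the 7 genes the E-box occurs in Lpin2 only, the CCAAT box in 4 and the GC box in 4. A gene is counted here if any of its entries holds the motif, and the 7 genes have 11 entries. These counts are therefore not directly comparable with the percentages per window. The CCAAT box of Lpin2 is in entry 3, which is not printed. The windows of Lpin1 and Agpat3 printed here hold none of these motifs. The shorter core ACGTG, which overlaps the E-box and is in 16.6% of windows, occurs in Lpin2, Lpin3 and Agpat3. The sterol element TCACNCCAC (1.05% of windows) and the direct repeat bound by PPAR receptors (0.0335%) are in none of the 7.

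The second comparison was of silenced with control cells at 24 h, the time of low Pnpla6. None of the 16 member probes passed the limma test, where 0.402% of all tested probes did, 0.271% higher, and 1 had an unadjusted p under 0.05. That probe was Plin2, with log2 ratios of 0.20 and 0.11 on the arrays of replicates 1 and 2 and a fitted 0.16 (SE 0.06, limma adjusted p = 0.487). Its silenced channels, 12.69 and 12.72, lay above its control channels, 12.49 and 12.61. With 2 channels in each group this is weak evidence, and how many of all probes do so was not counted. The fitted ratios of all member probes ran from −0.08 to 0.16 with SEs of 0.06 to 0.07, and 4 of 16 had the same sign on both arrays, against 38.5% of all probes. At this precision and with 2 arrays, differences of this size could not be told from no difference.

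The third comparison asked the same at 96 h. Mogat2 and Lpin2 were lower in silenced cells, Lpin1 was higher on 1 of its 3 probes, and the other 7 genes did not pass. That made 3 of 16 member probes, where 12.9% of all tested probes passed, 6.24% higher and 6.68% lower. The median ratio of the member probes was 0.01 on the log2 scale and that of all tested probes 0.00144.

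Mogat2 had the largest difference among the members. On the array of replicate 1 its silenced channel was at 8.54 and its control channel at 9.20, and on replicate 2 they were at 8.62 and 8.98. Before normalization the spot of replicate 1 read 291 over a local background of 23 for silenced RNA in Cy3, and 756 over 62 for control RNA in Cy5. With the dyes exchanged, replicate 2 read 519 over 58 for silenced RNA and 375.5 over 17 for control RNA. After normalization both arrays put silenced cells below control cells, by −0.66 and −0.36, and the groups did not overlap. The fitted log2 ratio was −0.51 (SE 0.07, n = 2 arrays), which is 0.703-fold, with a limma adjusted p of 1.07e-07, and 192 of the 28088 probes had a larger fall. The call rests on the dye term and on a spread shared over probes: without this term, which doubles as a replicate block, the ratio stayed at −0.51 and the limma adjusted p was 0.0991. Leaving out any of the 4 arrays also took away the call, in fits that had no dye term either. The ratio was −0.36 without 96 h replicate 1 and −0.66 without 96 h replicate 2.

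Lpin2 encodes the second lipin, best known from bone inflammation in people who lack it. It had 6.58 and 6.41 in silenced cells at 96 h, against 6.67 and 6.74 in control cells. The groups did not overlap, although the 2 arrays differed, with ratios of −0.09 and −0.33. The fitted ratio was −0.21 (SE 0.06, limma adjusted p = 0.0212), or 0.866-fold. The spots were close to background, for example 57 over 23.5 for silenced RNA and 119 over 60 for control RNA on replicate 1. The adjusted p was 0.592 without the dye term and 0.087 with arrays centred on the median in place of loess.

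Lpin1 probe A_52_P483104 had 9.74 and 9.57 in silenced cells at 96 h, against 9.43 and 9.51 in control cells, and the groups did not overlap. The array ratios were 0.31 and 0.07 and the fitted value 0.19 (SE 0.06, limma adjusted p = 0.0398), or 1.14-fold. The remaining Lpin1 probes gave 0.12 and 0.04 and did not pass (limma adjusted p = 0.265 and 0.776), and on each of them the ratio of replicate 2 was slightly negative. So 1 probe of 3 carried the call, and it was lost without the dye term (limma adjusted p = 0.609) and with an offset of 16 (limma adjusted p = 0.165).

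The 13 member probes that did not pass at 96 h had ratios from −0.09 to 0.12, with a lowest adjusted p of 0.259. Plin2 was again positive on both arrays, at 0.13 and 0.11, with a fitted 0.12 (limma adjusted p = 0.259). Plin3 gave 0.03 and 0.05 on the arrays, and Gpam 0.04 and 0.03. The Dgat1 probe A_51_P510059 shows how far arrays could part, with 0.15 on replicate 1 and −0.29 on replicate 2. In all, 10 of the 16 probes had the same sign on both arrays at 96 h, and 51.3% of all probes did.

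**Figure D3:**
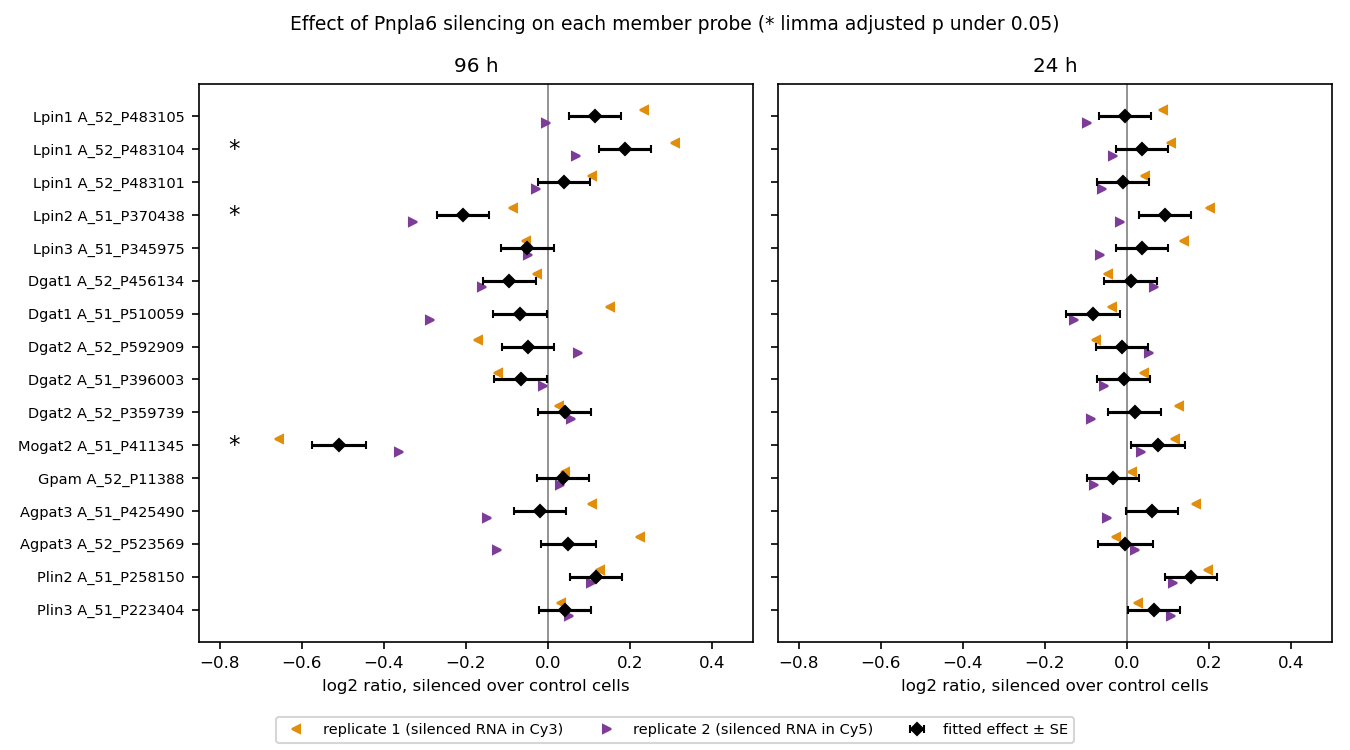
Log2 ratio of silenced over control cells for each member probe at 96 h (left) and 24 h (right). Triangles are the 2 arrays, diamonds the fitted effect with its SE, and an asterisk marks a limma adjusted p under 0.05. At 96 h Mogat2 lies at −0.51, Lpin2 at −0.21 and Lpin1 A_52_P483104 at 0.19, while at 24 h all fitted values lie between −0.08 and 0.16.

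The difference between the effect at 96 h and that at 24 h was tested as a contrast of its own. Of the member probes 2 passed, both lower, where 6.87% of all tested probes passed, 2.78% higher and 4.09% lower. For Mogat2 the effects were −0.51 at 96 h and 0.08 at 24 h, a difference of −0.58 (SE 0.09, limma adjusted p = 1.44e-05), but at 24 h the transcript was at background on both control channels and 1 of 2 silenced channels, where an effect could hardly be measured. For Lpin2 they were −0.21 at 96 h and 0.09 at 24 h, a difference of −0.30 (SE 0.09, limma adjusted p = 0.0295). Without the dye term, and so with no replicate block, the limma adjusted p was 0.359 for Mogat2 and 0.884 for Lpin2. Both calls were also lost with the authors' ratios and without any 1 array, and that of Lpin2 with an offset of 16 and with median centring. The fits without 1 array had no dye term either. Slide as a block gave the same fit as leaving out 96 h replicate 2. The remaining 14 probes had differences from −0.10 to 0.15, with a lowest adjusted p of 0.392, and the median of all 16 was −0.03.

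The wider lipid pathway was read from 6 lists with 97 genes besides the members, of which 84 were tested on their brightest probe. At 24 h none of them passed. At 96 h 24 of 84 passed, 11 higher and 13 lower in silenced cells, where 12.9% of all tested probes passed, 6.24% higher and 6.68% lower. The lists were chosen with earlier results of these data known and hold 1 probe per gene. The share of the 84 is therefore not directly comparable with that of all probes. The median ratio of the 84 was 0.02. Without the dye term 2 of the 84 passed, and none did with the authors' own ratios, so the single values that follow carry the same limit as those of Mogat2 and Lpin2. Falls were most numerous in fatty acid uptake and activation, where 6 of 13 tested genes were lower and 2 higher, with a median of −0.17. Slc27a2, a fatty acid transporter and acyl-CoA synthetase, fell by 0.66 on the log2 scale (SE 0.06, limma adjusted p = 3.69e-11). Acsl5, an acyl-CoA synthetase that activates fatty acids, fell by 0.45 (limma adjusted p = 6.7e-07), and Fabp3, a fatty acid binding protein of heart and muscle, rose by 0.48 (limma adjusted p = 1.46e-06).

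Among the glycerol backbone and other acyltransferase genes 3 of 18 were higher and 1 lower. Gpat2, a relative of Gpam best known from testis, rose by 0.53 (limma adjusted p = 1.13e-08), and the lipid phosphate phosphatases Plpp1 and Plpp3 by 0.32 and 0.29. Plpp1 and Plpp3 act on lipid phosphates at the cell surface, apart from the lipins. Of the other droplet genes 3 of 15 were higher and none lower: G0s2, an inhibitor of triglyceride lipase, at 0.26, Fitm2, which helps droplets bud, at 0.20, and Cidec, which fuses droplets, at 0.20. Of 8 breakdown genes Pnpla3 rose by 0.40 (limma adjusted p = 6.52e-06) and Abhd5, the coactivator of triglyceride lipase, fell by 0.24 (limma adjusted p = 0.00831).

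In the other routes of phosphatidic acid and diacylglycerol 2 of 17 genes were higher and 2 lower. Chpt1, which joins diacylglycerol to choline to make phosphatidylcholine, rose by 0.36 (limma adjusted p = 4.07e-05). Selenoi, which makes phosphatidylethanolamine from the same diacylglycerol, fell by 0.31 (limma adjusted p = 0.000453), and Ptpmt1, a mitochondrial phosphatase of cardiolipin synthesis, fell by 0.22. Of 13 regulators 3 were lower and none higher. They were Ppargc1b, a coactivator of lipid genes, Srebf2, the regulator of sterol synthesis, and Mlxipl, the carbohydrate response factor, each at −0.22. Srebf2 had the other sign, at 0.18, when 96 h replicate 2 was left out.

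**Figure D4:**
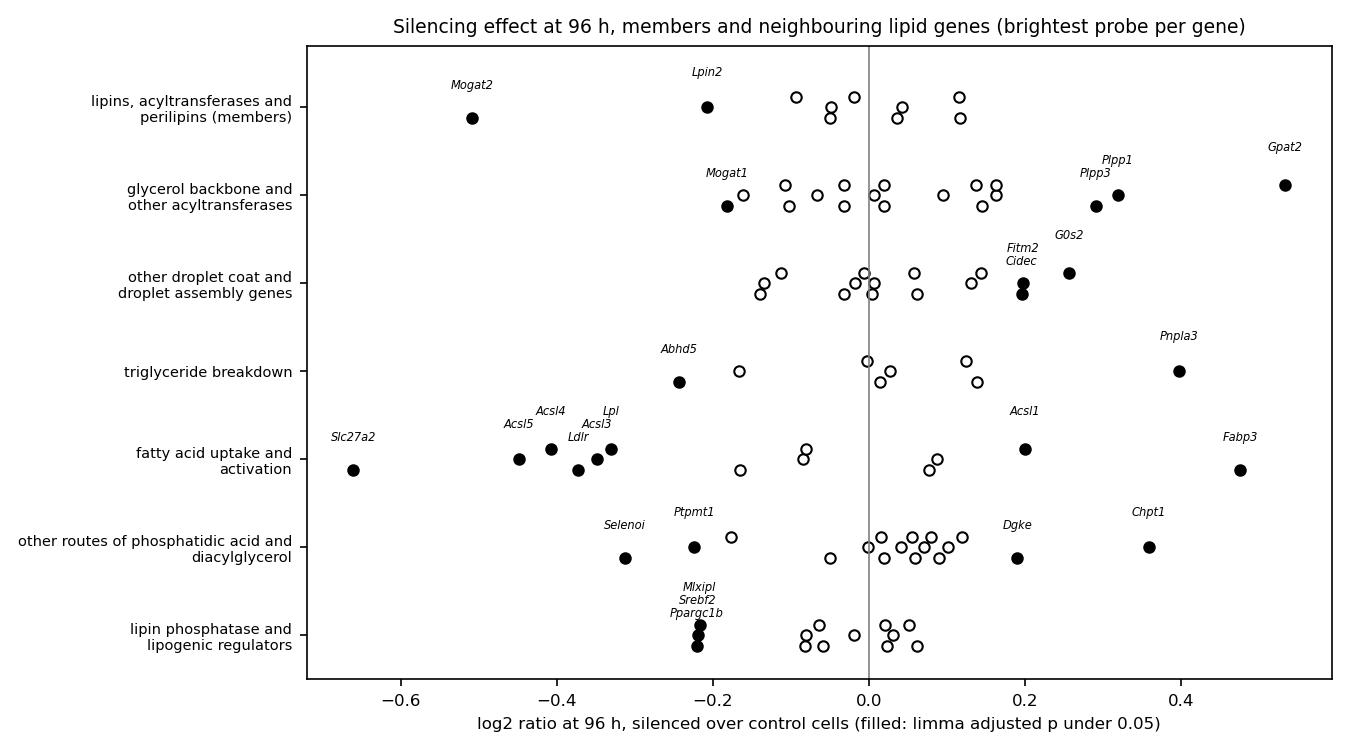
Log2 ratio of silenced over control cells at 96 h for the brightest probe of each member gene (top row) and of the genes of 6 lists of the lipid pathway. Each dot is a gene, and filled, named dots passed a limma adjusted p of 0.05. The row of fatty acid uptake and activation holds 6 lower and 2 higher genes of 13, with Slc27a2 at −0.66 and Fabp3 at 0.48.

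Cell type markers also differed between the groups at 96 h, where 6.24% of all tested probes were higher and 6.68% lower in silenced cells. Over all probes such calls were far fewer without the dye term. The marker lists carry the limits given for the pathway lists. Of the 10 embryonic stem cell markers 6 were higher and 1 lower in silenced cells, with a median ratio of 0.25 and summed intensities of 286500 to 419500 in silenced and 235100 to 408800 in control cells, ranges that overlap. Of the 7 feeder fibroblast markers past the filter 2 were higher and 4 lower, with a median of −0.32. Of the 8 visceral endoderm markers 2 were higher and none lower, with summed intensities of 1206 to 1223 in silenced and 988 to 994 in control cells. The adipocyte list summed to 246 to 252 in silenced and 234 to 237 in control cells and the macrophage list to 163 to 166 and 146 to 161. The part of these markers in the member ratios was not tested.

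Over the 84 pathway genes the time comparison called 42 in silenced and 42 in control cells, 25 higher and 17 lower in each. Of all tested probes 37.5% were called in silenced cells, 18% higher and 19.5% lower. In control cells 36.6% were called, 17.8% higher and 18.8% lower. Here too the share of the chosen lists is not directly comparable with that of all probes. The genes named here had the same direction in silenced and control cells. Soat1, the sterol acyltransferase that makes cholesterol esters for droplets, was higher at 96 h by log2 1.35 in silenced and 1.5 in control cells. Cidea, another droplet fusion protein, was higher by 1.25 and 1.12, and Pnpla2, the main triglyceride lipase, by 1.05 and 1.04. Cds1 and Dgka, which turn phosphatidic acid towards CDP-diacylglycerol and diacylglycerol back to phosphatidic acid, were higher by 1.56 and 1.39 in silenced and by 1.41 and 1.21 in control cells. Mlxipl was higher by 1.31 and 1.49, while its partner Mlx was lower, with −0.94 in silenced and −0.89 in control cells.

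Likeness of pattern was read as Pearson's r of the normalized intensity over the 8 channels, among 21759 candidates, and is given only as a description because the channels share arrays and fall into 2 times. The genes most like Mogat2 were Slc40a1 (r = 0.9992), Ttc39a (0.9989) and Setbp1 (0.9986), with ratios at 96 h of −0.37, −0.32 and −0.20. Those most like Lpin1 on A_52_P483104 were Necab2 (0.9995), Hspb2 (0.9986) and Bmp7 (0.9985), with ratios of 0.12, 0.21 and 0.18, of which the one of Hspb2 passed the test (limma adjusted p = 0.0237).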

How the data were processed

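The authors extracted the scanner files with Agilent Feature Extraction (version 10.7.1.1 per the file headers), and limma is named in the submitters' processing notes without a version. The deposited scanner files give the intensity of each spot and of its local background (arbitrary units) and, per the file headers, log10 ratios of Cy5 over Cy3. The deposited p-value of each spot's ratio comes from an error model of a single array and was not used. The authors' table of the series equals these log10 values within 4.97e-06 once the sign is turned for dye. Mean spot signals are not among the columns used, so median spot and background signals were taken.

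With R 4.3.3 and limma 3.58.1, background was corrected by normexp with an offset of 50, ratios were normalized by loess within each array with the 1639 control spots at weight 0, and spots of a probe were averaged. A non-uniform spot (1) was left out with its probe. Probes well above background on both arrays of at least 1 RNA group were tested, 28088 of 41174. All 4 arrays were fitted with a mean per time and a dye orientation term, with 1 residual and 44 prior degrees of freedom, so that the SE is nearly the same for every probe. Times were compared on single channels after Aquantile normalization with lmscFit and an intraspot correlation of 0.894 (4.72 prior degrees of freedom). P-values were two-sided and adjusted by Benjamini-Hochberg over all tested probes. The ratio fit and the single-channel fit were tested on simulated data with a dye effect shared by both times. Background correction, normalization and the filter were not part of that test. It cannot show whether such a dye effect holds in these arrays. With 2 arrays per time, the number of arrays limits the precision.

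RefSeq accessions named 24375 probes; the arrays refer to another build, so coordinates are given only for RefSeq promoters (GRCm38.p6). All member probes are reported. From each pathway list up to 3 genes with the largest change past the threshold are named. Members and lists were chosen with earlier results of these data known. Alternatives were the offset, centring, the authors' ratios, no filter, the brightest probe per gene and no dye term. Further ones were slide as a block, quantile normalization of channels and leaving out each array. For the silencing effects, slide as a block and leaving out an array were fitted without the dye term. An intensity trend in the prior variance was added after seeing the data.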

Additional observations from a re-analysis of the deposited data

Results flagged for a closer look

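Among the member probes 2 had silencing effects that differed between the times by a test of the difference itself. For Mogat2 (A_51_P411345) the log2 ratio, silenced over control, was −0.51 at 96 h and 0.08 at 24 h, a difference of −0.58 (limma adjusted p = 1.44e-05). At 24 h this probe was above background on 1 of 2 silenced and on no control channel, so that the 24 h ratio could hardly show an effect. For Lpin2 (A_51_P370438) the ratio was −0.21 at 96 h and 0.09 at 24 h, a difference of −0.30 (limma adjusted p = 0.0295). Neither call held without the dye term (limma adjusted p = 0.359 and 0.884).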

How the results depend on the processing

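The direction of every member value called in a comparison held under all alternatives run, but the calls of the silencing effects did not. The silencing effect passed on 113 probes after 24 h and 3629 after 96 h, and its change between times on 1929. With an offset of 16 these counts were 1, 1410 and 466, with median centring 52, 2245 (1388 higher, 857 lower) and 986, and with the authors' ratios 0 each (1924, 4875 and 3753 at an unadjusted p under 0.05). Without the dye term, and so with no replicate block, they were 0 (271 unadjusted), 150 (25 higher, 125 lower) and 0 (1672 unadjusted). With slide as a block they were 0 (249 unadjusted), 43 (3 higher, 40 lower) and 0 (1386 unadjusted). Leaving out 1 array gave 0 at 24 h (249 to 486 unadjusted), 43 to 206 at 96 h and 0 to 3 for the difference. Member probes at 96 h went down to 0 of 16 under the authors' ratios, under no replicate block, with slide as a block and without any 1 array. For the difference between times 2 member probes became 1 with an offset of 16 and 1 with median centring, and 0 under those same other settings. Lpin2 was the probe lost, at −0.46 (limma adjusted p = 0.073) and −0.31 (0.145). The other pathway genes past the threshold at 96 h, 24 of 84, became 11 with an offset of 16, 2 without the replicate block, 0 with slide as a block, 0 with the authors' ratios and 0 to 2 without 1 array. For the difference, 17 became 3, 0, 0, 0 and 0, and 10 with median centring. Slide as a block was the same fit as leaving out 96 h replicate 2, the only array on slide 2. In that fit Srebf2 at 96 h, −0.22 in the main fit, reversed to 0.18. Srebf2 was −0.61 without 96 h replicate 1. The cause was not tested. The fits of silencing effects with 1 array left out, or with slide as a block, had no dye term. Their losses are therefore not separate from the loss without the dye term.

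Same-numbered arrays deviated together (correlation 0.677 over 28088 probes), but there are only 2 such pairs and their number coincides with dye. The counts of calls in the time comparisons stayed within 1.5 times under the alternatives run, except that control cells had 14 member probes, against 9, without 24 h replicate 1 (11 to 14 over the arrays left out). Single values moved more: with an offset of 16 Gpam was −0.52 in silenced and −0.63 in control cells, Dgat2 A_52_P359739 was −0.38 and −0.43, Dgat2 A_51_P396003 was −0.62 in silenced cells and Mogat2 was 3.22 and 3.92. With 1 array left out, Lpin3 in silenced cells ranged from −0.05 to 0.35, Agpat3 A_52_P523569 in control cells was 0.26 without 24 h replicate 2, and Dgat1 A_52_P456134 in control cells ranged from −0.28 to −0.02. With the intensity trend the silencing counts were 164, 3891 and 2105, with 0, 3 and 2 member probes. Mogat2 at 96 h ranged from −0.66 to −0.36 with 1 array left out and was −0.54 with the authors' ratios (limma adjusted p = 0.421). Signals near background limit Lpin2, Gpam, the dimmer Dgat2 probes and Mogat2 at 24 h.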
